A study of Arabidopsis thaliana with 24 samples.

Results

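GRX480 (AT1G28480, also known as ROXY19) was followed through all 8 groups of a study of wild-type Arabidopsis thaliana leaves given water or salicylic acid (SA), the hormone that switches on much of the plant's defence against biotrophic pathogens. It was 1 gene of 13286 that had a probe set with a single gene symbol, and its probe set, 261443_at, was 1 of 22746 tested. The gene was selected by locus, without a threshold on any measured value.

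GRX480 encodes a glutaredoxin, a small protein that uses glutathione to reduce or modify cysteine thiols in other proteins. It belongs to the CC-type class of land plants, named for the neighbouring cysteines of its active site. The GRX480 protein binds TGA transcription factors, which recruit the SA co-activator NPR1 to SA-responsive promoters, and in plants with raised GRX480 the jasmonate-induced defensin gene PDF1.2 is repressed. The gene is known as a link between SA and jasmonate signalling.

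All plants were wild type, 23 days old, soil grown with a 12 h day, and had been kept in continuous light for 24 h before treatment and thereafter. True leaves were sampled in groups of 3 arrays: 1 mM SA given at ZT36 (hours on the zeitgeber clock) and labelled 3 h after treatment, 1 mM SA given at ZT24 and labelled 3 h, the SA groups labelled 0 h at ZT36 and at ZT24, and the 4 matching water groups. The labels call the replicates biological without saying whether they are separate plants or pools, so p-values measure the spread between these arrays. Each value is a log2 level set against the gene's own median across the 24 arrays. They carry no absolute level, so GRX480 cannot be called weakly or strongly expressed, its level cannot be set against that of another gene, and the leaf label cannot be checked against marker levels.

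Before the results, the SA 0 h arrays need a remark. They stood apart from the water 0 h arrays at 29% of probe sets at ZT36 and 16.2% at ZT24, and GI, an evening-phased clock gene, differed by -2.68 ± 0.20 and 1.01 ± 0.20 there (log2 difference ± SE from limma, 3 arrays per group, as in all values of this form below). The water 3 h arrays lay near water 0 h, with 0.00879% of probe sets called at ZT36 (2, with 3049 at an unadjusted p under 0.05) and 0% at ZT24 (0, with 728 at an unadjusted p under 0.05, limma). GI in water 3 h differed from water 0 h by -0.09 at ZT36 and -0.17 at ZT24, neither called. The groups are those of the labels as deposited. Whether the SA 0 h and the water 3 h arrays carry the right labels was not settled. This bears on every value with either of them as the baseline. The response at 3 h is given against both water 3 h and SA 0 h.

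After SA at ZT36, GRX480 stood at 4.31, 4.36 and 4.78 in the 3 h arrays, against -0.51, -0.49 and -0.61 in water 3 h arrays. After SA at ZT24, it stood at 3.89, 3.41 and 3.55 in the 3 h arrays, against -0.23, 0.09 and 0.10 in water 3 h arrays. All 6 SA 3 h arrays were high, and the lowest of them lay far above the highest of the 12 water arrays, at 0.10. The SA 0 h arrays were all low, with -0.23, -0.09 and -0.13 at ZT36 and -0.32, 0.03 and -0.19 at ZT24, against -0.01, -0.29 and -0.17 in water 0 h arrays at ZT36 and 0.07, 0.07 and 0.01 at ZT24. They overlapped the water 0 h arrays at both times.

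**Figure D1:**
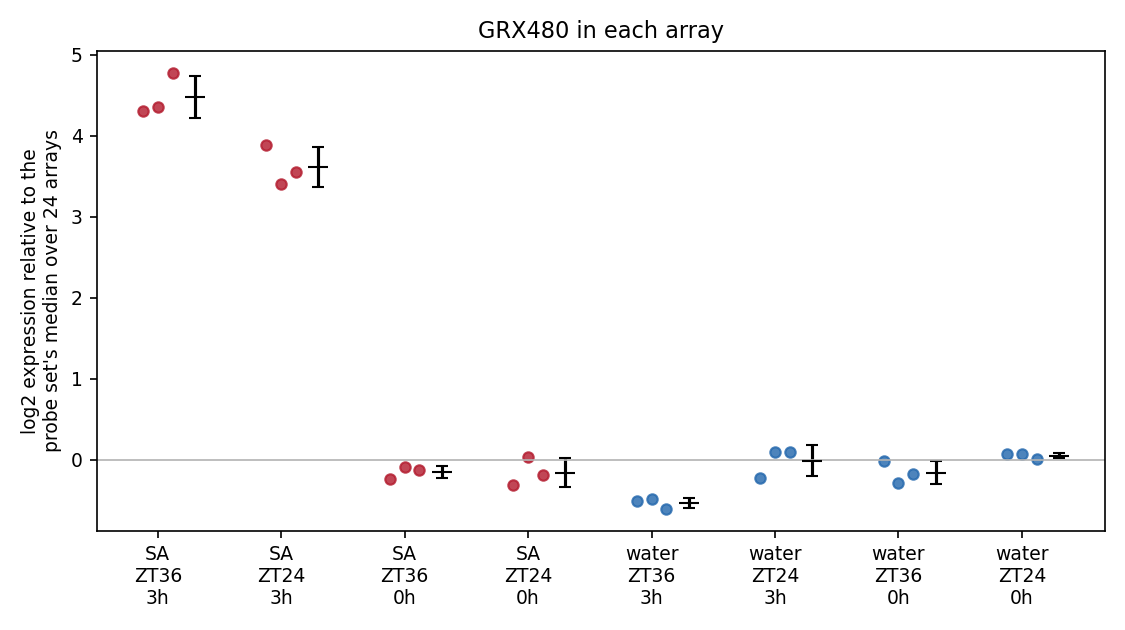
GRX480 in each of the 24 arrays, as log2 expression relative to the probe set's median (vertical axis), by group (horizontal axis). Points are arrays, red for SA and blue for water, and the black bar beside them is the mean ± SD of 3 arrays. The SA 3 h arrays lie between 3.41 and 4.78 and the other 18 arrays between -0.61 and 0.10.

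Since 18 of the 24 arrays lay in a narrow band, the zero of the scale is close to the level of the gene in those arrays. Ordered by mean, SA ZT36 3h came first at 4.48 ± 0.26 (SD, n = 3) and SA ZT24 3h next at 3.62 ± 0.24. These were followed by water ZT24 0h at 0.05 ± 0.03, water ZT24 3h at -0.01 ± 0.19, SA ZT36 0h at -0.15 ± 0.07, water ZT36 0h at -0.16 ± 0.14 and SA ZT24 0h at -0.16 ± 0.17. Within these 5 groups each overlapped the next in the order, and none of the gaps between them exceeded the larger SD of the pair. Water ZT36 3h was the lowest group at -0.53 ± 0.06 and did not overlap the group above it. The residual SD of the gene within groups was 0.17, against a median of 0.13 over all probe sets.

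GRX480 rose 32.3-fold at ZT36 in SA against water at 3 h (95% interval 26.8 to 39.0, limma, Benjamini-Hochberg adjusted p = 2.1e-16), the 17th largest rise of the 22746 probe sets. It rose 12.3-fold at ZT24 (10.2 to 14.9, adjusted p = 9.5e-14), the 61st largest. At this threshold, an adjusted p of 0.05, 18.5% of all probe sets rose at ZT36 and 17.7% at ZT24. With SA 0 h in place of water 3 h, GRX480 rose 24.8-fold at ZT36 (20.6 to 29.9) and 13.7-fold at ZT24 (11.3 to 16.5), the 10th and the 41st largest rises, where 13.3% of probe sets rose at ZT36 and 14.3% at ZT24.

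No difference between SA and water passed the test at 0 h. It was 0.01 ± 0.13 at ZT36 (95% interval -0.26 to 0.28, limma adjusted p = 0.98) and -0.21 ± 0.13 at ZT24 (-0.48 to 0.06, adjusted p = 0.32). Taking these 0 h differences off the 3 h ones left 5.01 ± 0.18 at ZT36 and 3.84 ± 0.18 at ZT24 on the log2 scale, both called, beside 11.3% and 11.1% of probe sets called higher.

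Quantile normalization of the deposited values lowered the ZT36 response to 4.02 and the ZT24 response to 2.54 on the log2 scale against water, and against SA 0 h to 3.68 and 2.70, all still called (the cause was not tested). Of 9 markers of other leaf cell types and of root, 2 were measured. Here and below, a listed gene counts as measured if a probe set is named for it alone in the annotation used. FMA, a guard cell lineage factor, fell by 0.48 at ZT36 and by 0.44 at ZT24, the second of which was lost under the same quantile normalization (adjusted p = 0.081). SWEET11, a phloem sucrose exporter gene, rose by 0.36 at ZT36 and stood at 0.17 ± 0.09 at ZT24, which passed only under quantile normalization (0.22, adjusted p = 0.048) among the alternatives. At 0 h SWEET11 was already higher in SA than in water at ZT36, by 0.40 (called). Against SA 0 h it differed by 0.02 at ZT36 and -0.04 at ZT24, neither called. FMA differed by -0.40 and -0.31 against SA 0 h, both called. The ZT36 call was lost without replicate 2 of SA ZT36 0h (limma adjusted p = 0.063). The ZT24 call was lost under several alternatives, among them array median centring (0.06). The part of these markers in the result was not tested, and in whole leaves a change in the number of cells of a type and a change in RNA per cell cannot be told apart.

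With water 3 h as the baseline, the response to SA was larger at ZT36 than at ZT24. The difference between the log2 responses against water was 1.39 ± 0.18 (95% interval 1.00 to 1.77, limma adjusted p = 1.8e-05), so the fold rise at ZT36 was 2.62 times that at ZT24. The same test called 10.3% of all probe sets in this direction and 10.4% in the other, and GRX480 was the 368th largest of the positive differences. The difference is made of a term in SA and one in water. In SA 3 h arrays GRX480 was higher at ZT36 than at ZT24 by 0.87 ± 0.13 (adjusted p = 3.4e-05), and in water 3 h arrays it was lower at ZT36 by -0.52 ± 0.13 (adjusted p = 0.003). Neither pair of groups overlapped. The call in water was narrowly lost with a trended and robust variance prior (-0.52, adjusted p = 0.053), and 16.3% of all probe sets were higher in the first comparison and 16.8% lower in the second.

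In water the gene showed little other movement. Between ZT36 and ZT24 at 0 h the difference was -0.21 ± 0.13 (limma adjusted p = 0.22), without overlap of the arrays, where 40.9% of probe sets were called. Water 3 h differed from water 0 h by -0.38 ± 0.13 at ZT36, where the arrays did not overlap but the adjusted p was 0.22 (unadjusted 0.0091), and by -0.06 ± 0.13 at ZT24. In SA 0 h arrays ZT36 and ZT24 differed by 0.01 ± 0.13, with a 95% interval of -0.26 to 0.28, where 24.5% of probe sets were called.

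With SA 0 h as the baseline the difference between the times was 0.86 ± 0.18 (95% interval 0.48 to 1.24, limma adjusted p = 0.03). In this test 0.598% of probe sets were called, 0.193% (44) in the same direction as GRX480, which was among them. The call was lost on removal of replicate 2 (0.92, adjusted p = 0.053) or 3 (0.71, 0.074) of SA ZT36 3h. It was lost too without replicate 2 (0.76, 0.065) or 3 (0.83, 0.059) of SA ZT24 3h. The same held for replicate 1 (0.82, 0.076), 2 (0.89, 0.063) or 3 (0.87, 0.063) of SA ZT36 0h. Removal of replicate 2 (0.77, 0.085) or 3 (0.87, 0.057) of SA ZT24 0h also lost it. The estimate rose on some removals and fell on others. The call was also lost when only the arrays compared were fitted (adjusted p = 0.12) and with a trended and robust prior (adjusted p = 0.26). The SA 3 h arrays enter both comparisons of the times, which are therefore not independent.

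**Figure D2:**
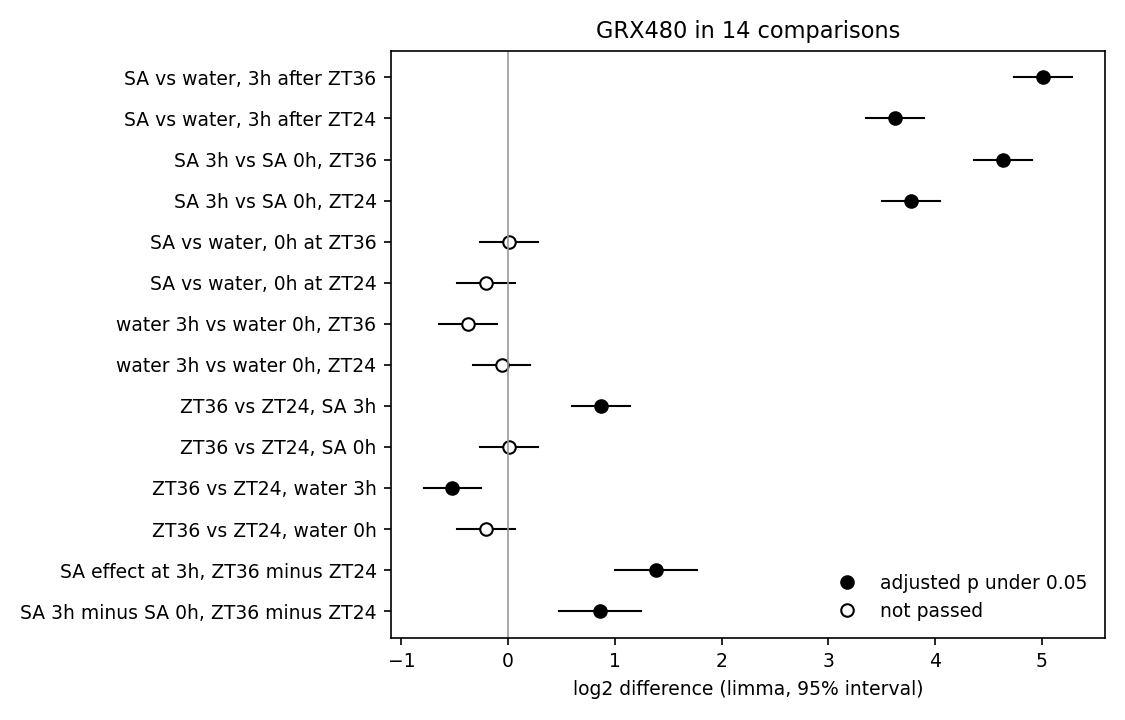
Log2 difference of GRX480 (horizontal axis) in 14 comparisons (vertical axis), the group named first minus the group named second, with lines for the 95% interval from limma. Filled points passed an adjusted p of 0.05. The SA responses at 3 h lie between 3.63 and 5.01, the 0 h comparisons of SA with water include 0, and both differences between the times lie above 0.

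No other measured CC-type glutaredoxin had a rise of the size seen for GRX480. Family membership was taken from general knowledge of the family, since most of these loci carry no symbol in the annotation used. Of 21 family members listed, AT3G21460, AT2G47870, AT4G15670 and GRXS13 had no named probe set, so their response is unknown here. The other 17 were measured. Among the 16 other than GRX480, 4 rose, 1 fell and 11 did not pass at ZT36 in SA against water at 3 h, beside 18.5% higher and 21.6% lower among all probe sets, and the median log2 difference was 0.25, against -0.02 over all probe sets. At ZT24, 5 rose, 2 fell and 9 did not pass, beside 17.7% higher and 20.5% lower among all probe sets, with a median of 0.42, against -0.03 over all probe sets. Over 14 alternative settings per time, the count that rose lay between 3 and 5 at ZT36 and between 5 and 6 at ZT24, and the count that fell between 0 and 2 and between 2 and 3.

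The risers at both times came from a run of neighbouring loci whose copies are very similar, so their probe sets may share signal and their values may not be separate. AT4G15700 rose by 2.04 ± 0.58 at ZT36 and 2.55 ± 0.58 at ZT24. AT4G15680 rose by 1.73 ± 0.38 and 2.05 ± 0.38. AT4G15690 rose by 1.45 ± 0.45 and 1.97 ± 0.45, with the ZT36 call lost without water ZT36 3h replicate 1 (1.25, limma adjusted p = 0.059). The result for their neighbour AT4G15660 was unsettled. It did not pass at either time (1.69 ± 0.69 and 1.24 ± 0.69), but at ZT36 it passed with array weights (limma adjusted p = 0.0055), a block on title runs (0.012), with the probe sets of lowest SD left out (0.041) and on removal of replicate 3 of water ZT36 3h (2.50, 0.0051), and at ZT24 with only the arrays compared (0.047). The SE of each of the 4 was larger than the 0.13 of GRX480. The SD of AT4G15700 reached 1.62 in a group of 3 arrays, in water ZT36 0h. Against SA 0 h, AT4G15680 alone of them passed, at ZT36 only (1.06 ± 0.38, adjusted p = 0.041), a call not made under quantile normalization (0.092) or on removal of any of the 6 arrays compared (between 0.061 and 0.14). With only the arrays compared AT4G15700 (0.85, adjusted p = 0.0017), AT4G15690 (0.79, 0.0024) and AT4G15660 (0.93, 0.00067) also passed at ZT36, and with the block AT4G15700 passed at ZT24 (1.18, 0.045).

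A few family members moved in ways GRX480 did not. AT3G62950 fell by 0.98 at ZT36 and rose by 1.62 at ZT24 (SE 0.33 each), and the difference between the times was -2.60 ± 0.46 (limma adjusted p = 0.00039). Its fall at ZT36 was not called once replicate 1 or 2 of SA ZT36 3h or replicate 2 or 3 of water ZT36 3h was removed (adjusted p between 0.05 and 0.093). In water 0 h arrays it was higher at ZT36 than at ZT24 by 2.18 ± 0.33, as 22.2% of probe sets were, and against SA 0 h it did not pass (-0.63 ± 0.33 at ZT36 and -0.52 ± 0.33 at ZT24). The ZT36 value did pass with the block (limma adjusted p = 0.039), array weights (0.039) and only the arrays compared (0.018), and the ZT24 value under quantile normalization (-0.78, 0.039) and on removal of replicate 3 of SA ZT24 3h (-0.88, 0.047). In SA against water at 0 h it already differed by -0.88 ± 0.33 at ZT36 and 1.90 ± 0.33 at ZT24. AT5G18600 rose at ZT24 (0.93 ± 0.22) and did not pass at ZT36 (-0.30 ± 0.22), with a difference between the times of -1.22 ± 0.30 (adjusted p = 0.0063).

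AT4G33040 and AT5G11930 fell at ZT24, by 1.23 (SE 0.19) and by 0.67 (SE 0.14), and did not pass at ZT36 (-0.44 ± 0.19 and 0.06 ± 0.14). At ZT36 AT4G33040 was called with the block (limma adjusted p = 0.023), array weights (-0.50, 0.021) and on removal of replicate 1 of SA ZT36 3h (-0.66, 0.0069) or replicate 2 of water ZT36 3h (-0.56, 0.038). The difference between the times was 0.73 ± 0.20 for AT5G11930 (limma adjusted p = 0.012) and 0.79 ± 0.27 for AT4G33040 (adjusted p = 0.039). The AT4G33040 difference was not called on removal of replicate 1 of SA ZT36 3h, replicate 2 or 3 of SA ZT24 3h, replicate 2 or 3 of water ZT36 3h or replicate 1 or 2 of water ZT24 3h, nor with only the arrays compared (adjusted p between 0.066 and 0.12). AT2G47880 rose by 0.81 ± 0.27 at ZT36, not called under quantile normalization (0.54, adjusted p = 0.15) or on removal of replicate 2 or 3 of SA ZT36 3h or of water ZT36 3h (adjusted p between 0.053 and 0.084), and stood at 0.66 ± 0.27 at ZT24, which passed on removal of replicate 2 (0.77, 0.05) or 3 (0.87, 0.02) of SA ZT24 3h and with the probe sets of lowest SD left out (0.043). ROXY1 and ROXY2, which act in flower development, stood at 0.01 ± 0.12 and -0.31 ± 0.19 at ZT36 and at 0.04 ± 0.12 and 0.18 ± 0.19 at ZT24, none of which passed, and the members not yet named, AT1G06830, AT2G30540, AT3G62960, AT1G03020 and AT3G62930, also did not pass at either time. Alternatives called AT3G62930 and AT1G03020 at ZT24. AT3G62930 (0.86 ± 0.39) passed with the block (limma adjusted p = 0.0071), array weights (0.96, 0.037), quantile normalization (1.13, 0.023) and without replicate 1 of SA ZT24 3h (1.27, 0.015). AT1G03020 (-1.01) passed with the block (0.044) and without replicate 1 of water ZT24 3h (-1.62, 0.023).

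**Figure D3:**
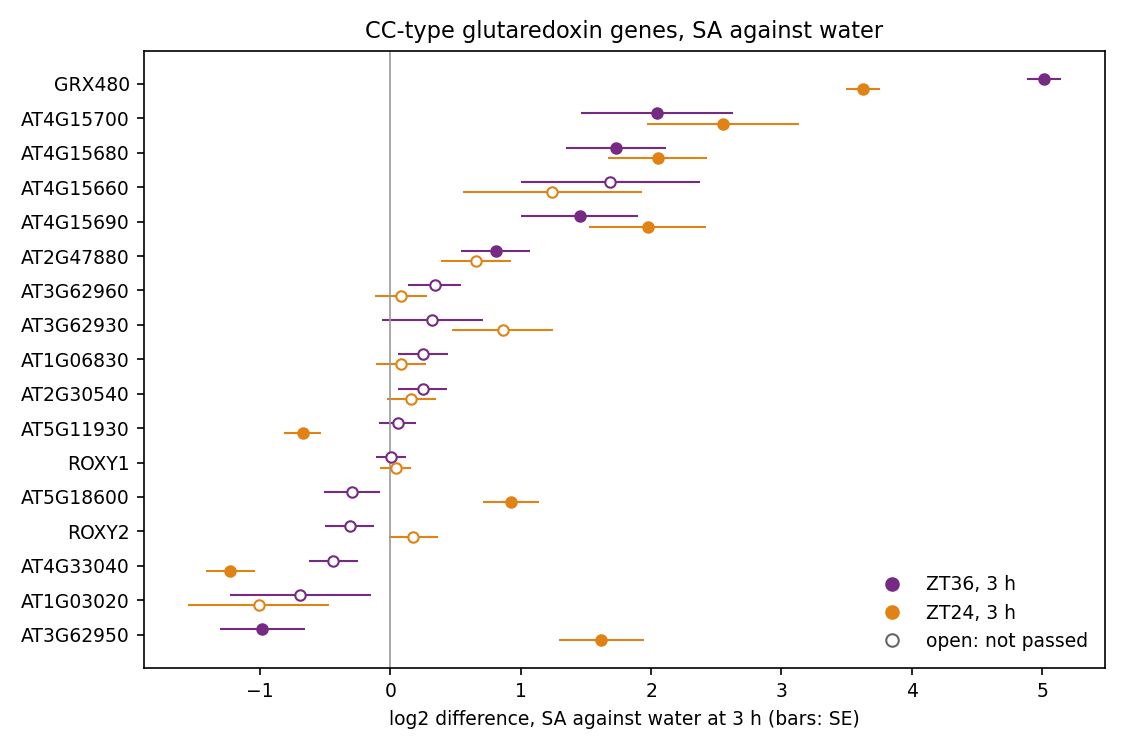
SA against water at 3 h for the 17 measured CC-type glutaredoxin genes: log2 difference (horizontal axis, bars for the SE from limma) for each gene (vertical axis), purple for ZT36 and orange for ZT24, with open points for values that did not pass an adjusted p of 0.05. GRX480 lies at 5.01 and 3.63, and no other member exceeds 2.55.

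In SA against water at 0 h, where GRX480 was not called, 3 of the other 16 CC-type genes were higher (AT1G06830, AT3G62960 and AT2G47880) and 2 lower (AT3G62950 and AT5G18600) at ZT36, beside 15.1% and 13.9% of all probe sets. At ZT24, 3 were higher (AT3G62950, AT4G15680 and AT3G62930) and 3 lower (AT1G06830, AT5G11930 and AT4G33040), beside 8.26% and 7.95%. The 0 h difference of AT2G47880 at ZT36 was 1.05, the highest of the 16 at that time. With SA 0 h as the baseline the count depended on the setting: over 14 alternatives, 0 to 4 rose and 0 to 3 fell at ZT36, and 0 to 3 rose and 0 to 1 fell at ZT24. At ZT36, AT4G15680 rose and AT4G33040 fell (-0.61 ± 0.19, not called on removal of replicate 2 or 3 of SA ZT36 3h or replicate 2 of SA ZT36 0h, with limma adjusted p between 0.077 and 0.096), beside 13.3% higher and 16.4% lower among all probe sets. At ZT24, AT1G06830 (0.71 ± 0.19) and AT2G47880 (0.72 ± 0.27) rose and none fell, beside 14.3% and 17.4%. The AT1G06830 call depended on replicate 1 of SA ZT24 0h (0.45 on its removal, adjusted p = 0.052) and was lost with only the arrays compared (0.069). The AT2G47880 call depended on replicate 1 of SA ZT24 0h (0.43 on its removal, adjusted p = 0.27) and of SA ZT24 3h (0.39, adjusted p = 0.31), and was lost under quantile normalization (0.10), with only the arrays compared (0.16), with array weights (0.32) and with a block on title runs (0.054). In the test of the difference between the times on this baseline, 0 of the 16 passed with limma, with 1 at an unadjusted p under 0.05, and the values lay between -0.91 and 0.44.

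Of 10 glutaredoxins of the other classes, which include general redox enzymes and iron-sulfur cluster proteins, 5 were measured. At ZT36 against water 3 h, 2 rose and 3 did not pass, beside 18.5% higher and 21.6% lower among all probe sets. At ZT24 2 rose, 1 fell and 2 did not pass, beside 17.7% and 20.5%. AT5G20500 rose by 0.60 ± 0.07 at ZT36 and 0.37 ± 0.07 at ZT24, and GRXC2, a cytosolic glutaredoxin, by 0.34 ± 0.09 and 0.47 ± 0.09. AT2G20270 fell by 0.51 (SE 0.12) at ZT24, and at ZT36 it passed only with array weights (-0.28, limma adjusted p = 0.025) and without replicate 3 of water ZT36 3h (-0.36, 0.034). AT1G77370 stood at 0.32 at ZT24, which passed with the block (adjusted p = 0.02), array weights (0.038), only the arrays compared (0.046) and without replicate 1 of SA ZT24 3h (0.39, 0.047). Of 9 genes listed for the glutathione and thioredoxin systems, the glutathione reductase genes GR1 and GR were measured. GR stood at -0.05 ± 0.14 at ZT36 and fell by 0.47 (SE 0.14) at ZT24. GR1 rose at ZT36 (1.05 ± 0.10) and stood at -0.19 ± 0.10 at ZT24 (-0.44 under quantile normalization, adjusted p = 0.0026). Against SA 0 h GR1 differed by 0.04 ± 0.10 at ZT36, and by 0.37 under quantile normalization (limma adjusted p = 0.015). In SA against water at 0 h GR1 already differed, by 1.04 at ZT36 and -0.32 at ZT24.

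Partners of GRX480 in SA signalling with a named probe set were few. None of the 10 TGA factors listed had a named probe set, and of 9 NPR, BOP and NIMIN genes only AT4G26120, an NPR1 relative, did. It rose by 0.93 ± 0.14 at ZT36 and 0.82 ± 0.14 at ZT24 against water 3 h, and by 0.80 ± 0.14 and 0.74 ± 0.14 against SA 0 h. The difference between the times was 0.10 ± 0.19 (limma adjusted p = 0.8). All 3 measured genes of the 21 listed for SA response and signalling rose at both times against both baselines, beside 18.5% (ZT36) and 17.7% (ZT24) of all probe sets against water and 13.3% and 14.3% against SA 0 h, although the SAG101 call at ZT36 against water was lost under quantile normalization (0.41, adjusted p = 0.065). For UGT76B1, which encodes an enzyme that glucosylates SA, for the transcription factor gene WRKY53 and for SAG101, a defence signalling gene, the differences between the times against water were 0.47 ± 0.18, 0.50 ± 0.41 and -0.40 ± 0.23. None of these passed with all arrays, although UGT76B1 did when only the arrays compared were fitted (adjusted p = 0.038) and narrowly with array weights (0.05). With SA 0 h as the baseline, the differences between the times were 0.76, -0.56 and -0.30 in the same order. None of the 3 passed with limma there, and 1 had an unadjusted p under 0.05. Of 13 genes listed as TGA-dependent detoxification genes, UGT73C1 and GSTU25 were measured. UGT73C1 passed against water at both times (0.68 ± 0.25 at ZT36 and 0.74 ± 0.25 at ZT24) but not against SA 0 h (0.56 and 0.57), except at ZT36 with array weights (0.61, limma adjusted p = 0.04) or without replicate 3 of SA ZT36 3h (0.84, 0.015), and at ZT24 without replicate 3 of SA ZT24 3h (0.86, 0.01) or of SA ZT24 0h (0.83, 0.017). Its calls against water were lost under quantile normalization (adjusted p = 0.078 and 0.097) and on removal of replicate 1 or 2 of the SA 3 h arrays at either time, replicate 2 of the water 3 h arrays at either time or replicate 3 of water ZT36 3h (adjusted p between 0.08 and 0.23). GSTU25 did not pass at either time (0.28 ± 0.16 and 0.33 ± 0.16), except at ZT24 on removal of replicate 2 (0.48, adjusted p = 0.027) or 3 (0.46, 0.037) of SA ZT24 3h or replicate 1 of water ZT24 3h (0.45, 0.048).

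The jasmonate side was not resolved here. Listed genes not counted as measured had no probe set named for them alone, and 8730 of the 22746 probe sets carried no symbol. Of 18 jasmonate and ethylene defence genes listed, 3 were measured and 0 passed in SA against water at 3 h with limma at either time, also 0 at an unadjusted p under 0.05. Among all 22746 probe sets, 40.2% passed at ZT36 and 38.1% at ZT24 in either direction. An unadjusted p under 0.05 was seen for 10292 of them at ZT36 and 10011 at ZT24. With only 3 genes, the count of 0 says little. PDF1.2, the defensin gene that raised GRX480 is known to repress, differed by 0.05 ± 0.90 at ZT36 and -1.08 ± 0.90 at ZT24 (limma adjusted p = 0.98 and 0.4). PDF1.2b, whose probe set is of a kind that may also detect related sequences, stood at 0.15 ± 0.60 and -0.74 ± 0.60, and the thionin gene THI2.1 at 0.17 ± 0.30 and -0.48 ± 0.30. With errors of this size a change of PDF1.2 was not detectable unless it was large. No group was given jasmonate, so repression of PDF1.2 in its jasmonate-induced state could not be examined.

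Among all probe sets, 205 correlated with GRX480 at a Pearson r of at least 0.95 over the 24 arrays and 15 at -0.95 or below. These are descriptions, and the points share the 6 SA 3 h arrays that set most of the pattern. Of the 10 with the highest r, 4 have no gene name here. The named ones were UGT76B1 (r = 0.99), AT1G78410 (0.989), AT3G57700 (0.987), AT3G29240 (0.987), AT1G16670 (0.985) and scpl16, a serine carboxypeptidase-like gene (0.984). Over the 18 arrays other than SA 3 h, r was 0.34 for UGT76B1, 0.29 for AT1G78410 and 0.68 for AT3G57700, lower than over all 24. The lowest r was -0.977, for a probe set without a name here, followed by AT5G64380 (-0.973) and AT3G20820 (-0.969).

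The likeness in r does not include size. UGT76B1 responded by 8.66 at ZT36 and 8.18 at ZT24 on the log2 scale against water, beside 5.01 and 3.63 for GRX480. Measured by the root mean square difference of the 8 group means, each profile set to 0 at the mean of its water groups, the nearest profile was that of AT3G57700 (0.20 log2 units). It responded by 4.84 at ZT36 and 3.50 at ZT24, and its lowest group was also water ZT36 3h. The next were AT1G78410 (0.26) with 4.81 and 4.47, an unnamed probe set (0.28), AT3G48080 (0.29) with 4.93 and 3.82, and a second unnamed probe set (0.30).

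**Figure D4:**
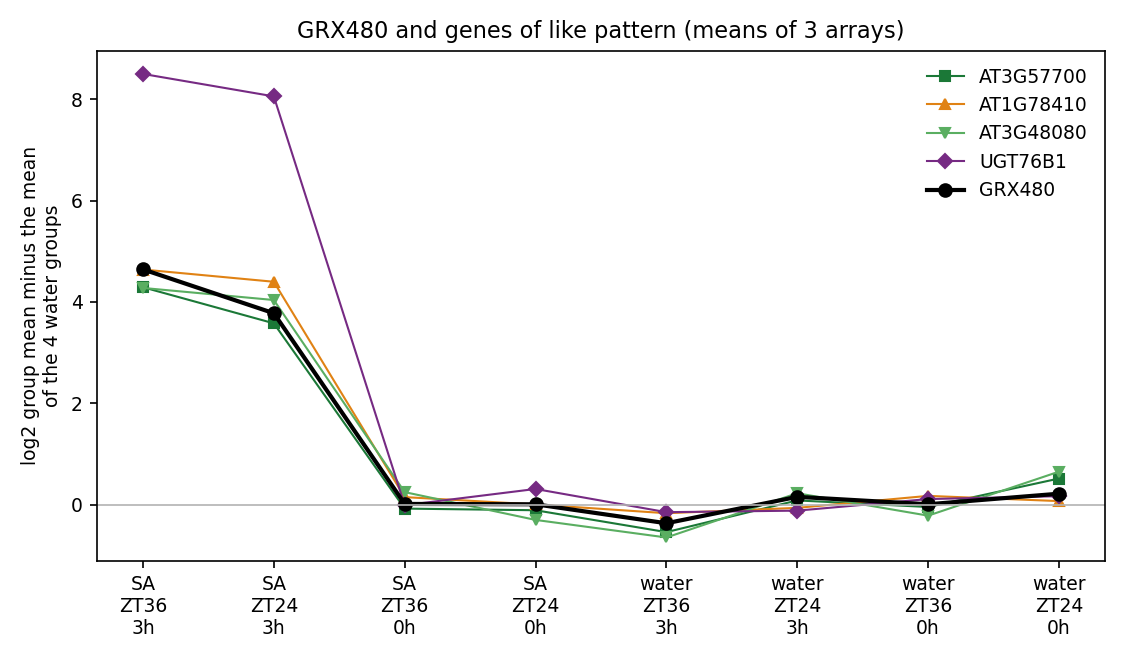
Group means of GRX480 (black), the 3 named genes with the nearest profiles and UGT76B1, as log2 units above the mean of the 4 water groups of each gene (vertical axis), by group (horizontal axis), with points for means of 3 arrays joined only to guide the eye. GRX480, AT3G57700, AT1G78410 and AT3G48080 lie between 3.58 and 4.64 in the SA 3 h groups, and UGT76B1 lies above 8.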

How the data were processed

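Leaf RNA of each of the 24 samples was read on its own Affymetrix array. The deposited log2 values were made with RMA, per the submitters' processing notes, which give no version. The log base is that of RMA. The values are also centred, each probe set at its median (largest absolute median 5e-07), so signal over background is unknown. The 64 control probe sets were left out. Probe sets were named through the platform annotation (13513 with 1 symbol, 503 with several, 8730 with none) and gene identifiers in a RefSeq table of TAIR10.1, which matched 13436.

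Groups were those of the labels. limma 3.58.1 in R 4.3.3 was fitted with 1 mean for each of the 8 groups (16 residual and 4.03 prior degrees of freedom), 2-sided, with Benjamini-Hochberg adjustment over the 22746 probe sets of each contrast at 0.05, and tested on simulated data. The gene and the 12 gene lists (134 entries, 36 measured, none of them root markers) were chosen with earlier results of these data known. Genes were named by a fixed rule: every measured CC-type glutaredoxin, called members and a few fixed members of the other lists, the 10 highest and 3 lowest r, and the 5 nearest profiles. The clock gene measured was GI. Arrays carrying the same number could not be shown to be paired: deviations of arrays from the same run of titles correlated at r of -0.36 to 0.45 (median 0.04), so a block was used as an alternative only. Figures used matplotlib 3.10.9.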

Additional observations from a re-analysis of the deposited data

Results flagged for a closer look

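Several results were singled out because the SA effect differed between ZT36 and ZT24 by a test of the difference itself (limma, Benjamini-Hochberg adjusted). GRX480 had the larger response at ZT36, by 1.39 ± 0.18 (SE) against water and by 0.86 ± 0.18 against SA 0 h (adjusted p = 1.8e-05 and 0.03). Of the other CC-type glutaredoxins, AT5G11930 (0.73 ± 0.20) and AT4G33040 (0.79 ± 0.27) had positive differences and AT3G62950 (-2.60 ± 0.46) and AT5G18600 (-1.22 ± 0.30) negative ones, all against water. GR1 differed by 1.24 ± 0.15 and the clock gene GI by -3.51 ± 0.29 in the same test. With SA 0 h as the baseline, the difference between the times passed for 0 of the other 16 CC-type genes. It also did not pass for GI (0.27) or for GR1 and GR (between -0.09 and -0.06). At 0 h, GI already differed between SA and water by -2.68 at ZT36 and 1.01 at ZT24. GR1 differed there by 1.04 and -0.32. The GRX480 call against SA 0 h and the AT4G33040 call against water were each lost under several alternatives.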

How the results depend on the processing

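Across 16 comparisons of GRX480, 236 of 248 values under the alternatives kept the direction or the lack of a call and the side of the threshold. With each array left out in turn, the response at 3 h against water ran between 4.87 and 5.10 at ZT36 and between 3.49 and 3.73 at ZT24, and the difference between the times between 1.24 and 1.52. The difference between the times against SA 0 h was the exception, at 0.71 to 0.99 with single arrays left out and adjusted p up to 0.085, and 0.86 when only the arrays compared were fitted (adjusted p = 0.12) or with a trended and robust prior (0.26). That prior also lost the ZT36 against ZT24 call in water 3 h (-0.52, adjusted p = 0.053). The causes were not tested. A replicate block on runs of title numbers could not move the estimates (5.01 and 3.63 at 3 h), since each run held an array of every group. The block changed no call of GRX480. With 1 probe set per gene, 13286 probe sets were tested in place of 22746, so the counts called have different bases. There, 4898 in place of 9133 were called at ZT36, 4631 in place of 8677 at ZT24, and 2462 in place of 4704 for the difference. Quantile normalization of centred values gives every array the same spread of deviations. The number of arrays limits the precision.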
